A study of Mus musculus with 4 samples.

Results

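Interferon-responding coronary endothelial cells were examined in single-cell RNA libraries of the mouse heart at postnatal day 2 (P2) and in the adult at 8 weeks. They were selected on 5 interferon-induced genes, Ifit1, Ifit3, Rsad2, Iigp1 and Cxcl10, whose molecule counts (unique molecular identifiers, UMIs) were summed in each cell. A cell was chosen by 3 limits: at least 1 UMI of the coronary genes Fabp4, Cldn5 and Aplnr together, 0 UMIs of the endocardial genes Npr3 and Tmem108, and a sum of at least 4. At P2, 137 of the 3751 cells within the first 2 limits met the last (3.65%, exact binomial 95% interval 3.08 to 4.30), and 349 of 4030 did in the adult (8.66%, 7.81 to 9.57), out of 21920 cells called in the series. The 4 libraries held 8122358 UMIs at embryonic day 12 (E12), 7079759 at day 15 (E15), 29645059 at P2 and 7650091 in the adult. All animals were of the C57Bl6J strain and the labels name no genotype or treatment. Hearts of 37 E12, 48 E15, 21 P2 and 6 adult animals were pooled into 1 library per stage, from endothelial cells sorted as CD31+/CD45-, frozen in DMSO and thawed before loading. Since each stage had 1 library, no difference was tested. Every interval covers counting error alone, not variation between cells or animals, and stage and library cannot be told apart.

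Interferons are secreted proteins that bind receptors on the cell surface, and the receptors activate JAK kinases, which pass the signal to transcription factors. Type I interferon acts mainly through the interferon-stimulated response element in promoters, and interferon gamma mainly through the gamma-activated site. The induced genes block viral entry, translation and replication, act on membranes around intracellular microbes and raise antigen presentation, and endothelial cells are known to respond to both kinds of interferon.

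The promoter runs below are shown because they hold the letters of these elements before rule genes and leading genes. RefSeq promoter windows on GRCm38.p6 were searched over the 250 bases before the gene start, on both strands, for GAAANNGAAA, which reads TTTCNNTTTC on the other strand, and for the gamma-activated motif TTCNNNGAA. The first was present for 3.46% of the 27025 genes with a window and the second for 8.13%. GAAANNGAAA was found before 4 of the 4 rule genes with a window, and Iigp1 had no entry. The Ifit1 run is at chr19:34640775-34640804 (+), that of Ifit3 at chr19:34583397-34583426 (+), that of Rsad2 at chr12:26456553-26456582 (-) and that of Cxcl10 at chr5:92349083-92349112 (-). The Isg15 run, chr4:156200871-156200900 (-), holds 3 overlapping matches, and the Igtp and Gbp2 runs are at chr11:58199512-58199541 (+) and chr3:142620594-142620623 (+). The Irf1 run, chr11:53769913-53769942 (+), and the Icam1 run, chr9:21015887-21015916 (+), hold the gamma-activated motif. Igtp also had this motif, at chr11:58199500-58199529 (+), and so did Ifit2, which had no GAAANNGAAA, and neither of these runs is shown. Capitals mark the motif, and each run is written 5′ to 3′ along the gene's strand.
Ifit1: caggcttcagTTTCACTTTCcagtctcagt
Ifit3: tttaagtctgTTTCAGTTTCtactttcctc
Rsad2: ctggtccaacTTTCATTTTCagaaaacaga
Cxcl10: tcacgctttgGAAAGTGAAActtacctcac
Isg15: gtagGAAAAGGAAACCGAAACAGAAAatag
Igtp: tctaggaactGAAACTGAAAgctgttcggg
Gbp2: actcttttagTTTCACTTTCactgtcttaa
Irf1: aacagcctgatTTCCCCGAAatgatgaggc
Icam1: aggcgcgaggtTTCCCGGAAagtggccccg

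In GENCODE M21 annotation of GRCm38, Ifit1 lies at chr19:34640871-34650009 and Ifit3 at chr19:34583531-34588731, in the Ifit gene cluster with Ifit2 and Ifit3b. Rsad2 lies at chr12:26442746-26456452, beside Cmpk2 at chr12:26469204-26479837, and Cxcl10 at chr5:92346638-92348889. Close copies such as Ifit3 and Ifit3b can share reads, so their separate counts are uncertain.

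The rule genes were unevenly spread over the selected cells. Iigp1, an immunity-related GTPase, was detected in 75.2% of the P2 cells and 77.7% of the adult cells, and Rsad2, which encodes the antiviral enzyme viperin, in 61.3% and 66.5%. Ifit1, which binds viral RNA, and its partner Ifit3 were found in 29.2% and 17.5% of the cells at P2 and in 53.6% and 46.7% in the adult. Cxcl10, a chemokine that attracts T cells, went the other way, with 23.4% at P2 and 5.44% in the adult. Over all cells within the coronary limits, though, its level per 1000000 UMIs was 13.1 at P2 and 12.4 in the adult. At P2, 45 cells showed 1 of the 5 genes, 47 showed 2, 38 showed 3, 5 showed 4 and 2 showed all 5, and in the adult these numbers were 60, 122, 105, 57 and 5. The sum had a median of 5 UMIs at both stages and reached 30 at P2 and 71 in the adult. The values in the selected cells restate their choice. The P2 cell with the sum of 30 held 30 of the members' 141 Cxcl10 UMIs and 67 of their 175 mural and fibroblast UMIs, beside 13 pan-endothelial UMIs of 9921 in all. The distribution had no gap at the limit, with 103 P2 cells at a sum of 3 and 45 at a sum of 4, and 183 and 113 in the adult.

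**Figure D1:**
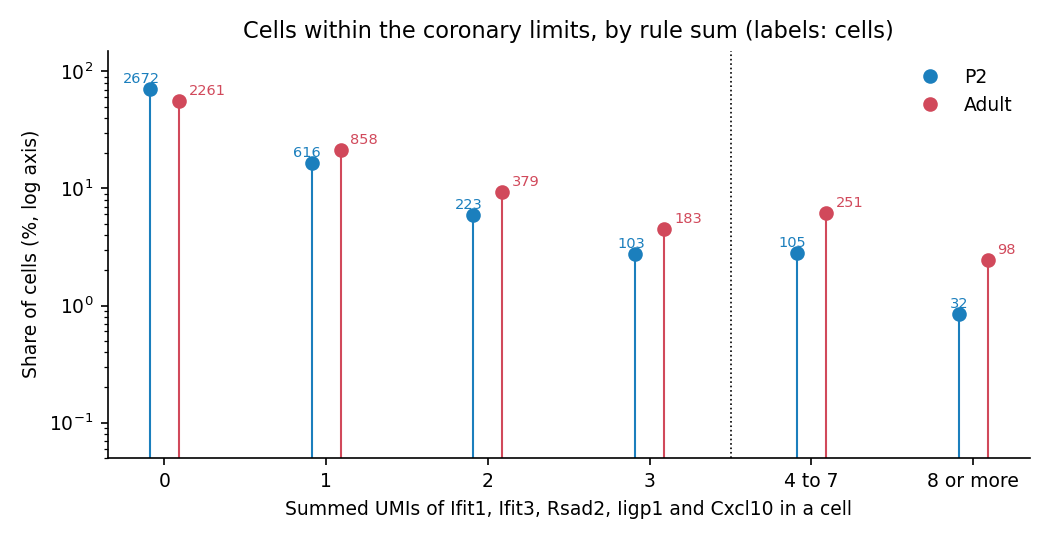
Share of cells within the coronary limits (log axis, in percent) by the summed UMIs of the 5 rule genes, for P2 and the adult. Labels give the number of cells, the dotted line marks the limit of 4, and the classes to its right pool several sums; the shares run from 71.2% and 56.1% at a sum of 0 to 0.853% and 2.43% at 8 or more.

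Each rule gene was also read in cells chosen by at least 4 UMIs of the other 4 genes, against depth-matched cells with 0 UMIs of those 4, a reading that does not use the gene's own counts. Ifit1 stood at 53.4 CPM (UMIs scaled to a total of 1000000) against 4.26 at P2 and at 411 against 30.0 in the adult, ratios of 12.5 (6.18 to 28.0) and 13.7 (10.3 to 18.4). Ifit3 counted 18 UMIs against 2 at P2 (ratio 26.9, 6.45 to 239) and 243 against 57 in the adult (11.8, 8.81 to 16.0). These 2 neighbours had the largest ratios of the 5 genes at P2 and in the adult. Rsad2 had ratios of 4.12 (2.88 to 5.92) and 3.87 (3.29 to 4.56), and Iigp1 8.78 (5.90 to 13.4) and 3.89 (3.25 to 4.65). Cxcl10 had ratios of 3.18 (2.08 to 4.87) and 4.06 (2.44 to 6.87), yet in the adult it was found in 10 of 340 chosen cells and 17 of its 41 UMIs came from 1 of them. At P2, 19 of its 49 UMIs came from 1 cell. Every rule gene stood higher in cells that it had not helped to choose. The 5 genes were taken as a set with earlier results of these data known, so this describes the set and is no separate support for it.

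No cell met the rule in the embryonic libraries. Over all cells their median depth was 1241 UMIs at E12 and 1013 at E15. It was 4531.5 at P2 and 1510 in the adult. At E12, 0 of 300 cells within the coronary limits reached a sum of 4, which allows a share of up to 1% by 3 counts of the total (exact binomial upper limit 1.22%), and at E15 0 of 1468 did, which allows up to 0.204% (0.251%). The rule genes together stood at 659.6 CPM over all adult cells within the coronary limits, against 124 at P2, 18.4 at E15 and 30.0 at E12. The 69 other interferon genes described below took the order E12, E15, P2 and adult, at 1159, 2131, 5716 and 11495 CPM. Median depth within the limits was 4366 UMIs at P2 and 1480 in the adult, so the larger adult share was seen at lower depth. Thinned to 500 UMIs a cell, with 0 cells left out, 5.47% of the P2 and 22.1% of the adult cells kept at least 1 rule-gene UMI, against 28.8% and 43.9% at full depth. P2 and adult hearts went through an added Collagenase II digestion that embryonic hearts did not, and adult samples also had red blood cell lysis. After thawing, P2 and adult cells were sorted again for live cells, while E12 and E15 cells had dead cells removed with a kit. The part of these steps in the counts was not tested.

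Cells with an endocardial gene met the sum less often at P2. There, 33 of 2107 reached a sum of 4 (1.57%, 1.08 to 2.19), and in the adult 14 of 179 did (7.82%, 4.34 to 12.8). Thinned to 500 UMIs, 2.99% at P2 and 14.0% in the adult kept a rule-gene UMI, below the shares within the coronary limits. The mix of the genes differed too. Rsad2 made up 39.2% of the rule-gene UMIs within the coronary limits and 15.3% in cells with an endocardial gene at P2, and 31.3% and 5.92% in the adult. No cell type that should lack these genes was large enough to read a background, since cells with at least 50 globin UMIs numbered 1 at P2 and 5 in the adult.

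Members were not confined to cells of either sex transcript. At P2 they were 2.95% of cells with Xist UMIs alone and 5.15% of cells with Y-linked UMIs alone, and in the adult 10.3% and 9.60%. The endothelial label was checked on markers. Pecam1, the antigen of the sort, was detected in 93.4% of the P2 and 75.1% of the adult members, and the junction gene Cdh5 in 97.1% and 89.1%. The coronary limit removed 26 cells at P2 and 33 in the adult among those without an endocardial gene, so the word coronary rests mainly on the absence of Npr3 and Tmem108. The comparison cells therefore include lymphatic and mural or fibroblast cells, whose marker levels are given below.

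Members were compared with cells of the same stage that met the first 2 limits and had 0 rule-gene UMIs, 3 for each member, matched on total UMIs. These matched cells numbered 411 at P2, with a median of 5514 UMIs against 5516 in members, and 1047 in the adult, with 1957 against 2278. The median mitochondrial share was 2.85% in members and 2.90% in matched cells at P2, and 3.61% and 3.69% in the adult. Genes with at least 20 UMIs over both sides, the rule genes left out, are called tested below in the sense that their CPM ratio of members to matched cells was read against a 2-fold limit in either direction. Where a pair of ratios is given without a stage, the first is for P2 and the second for the adult, each with its counting interval. At P2, 209 of 9125 genes were at least 2-fold higher in members, which is 2.29%, and 382 were at least 2-fold lower, 4.19%. In the adult 182 of 9124 were higher, 1.99%, and 455 lower, 4.99%. Of the higher genes, 132 at P2 (1.45% of those tested) and 109 in the adult (1.19%) were also at least 2-fold higher without the member with most of their UMIs. The median ratio over the tested genes was 0.984 for P2 and 0.965 for the adult.

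The 69 interferon genes outside the rule, in lists of transcription factors, antiviral effectors, the ISG15 system and immunity GTPases, stood higher in members at both stages. Their level was 8568 CPM (exact Poisson 95% interval 8375 to 8764) in P2 members and 5014 (4928 to 5100.5) in matched cells, a ratio of 1.71 (1.66 to 1.76). In adult members it was 17733 CPM (17456 to 18013) and in matched cells 9611 (9484 to 9739.6), a ratio of 1.85 (1.81 to 1.88). Across cells the level climbed over pooled classes of the rule sum. At P2 the median per cell was 49.7 UMIs per 10000 in matched cells, 62.0 at a sum of 1 to 3, 79.2 at 4 to 7 and 106 at 8 or more, and in the adult 92.1, 109.6, 154 and 234. The quartile ranges of neighbouring classes overlapped at both stages. Cells just outside the limit, with a sum of 3, stood at 7385 CPM at P2 and 13211 in the adult, and cells just inside, with a sum of 4, at 7577 and 14425. Their medians per cell ran the other way at P2, with 77.0 at a sum of 3 and 70.6 at 4. In the adult these medians were 125.5 and 146. Matched adult cells, with no rule-gene UMI, stood above P2 members.

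**Figure D2:**
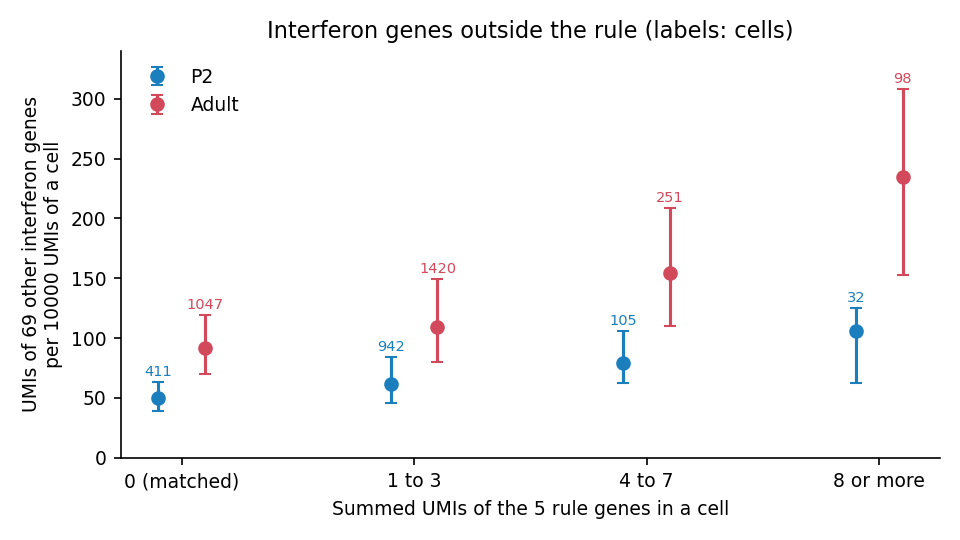
UMIs of the 69 interferon genes outside the rule per 10000 UMIs of a cell, by the summed UMIs of the 5 rule genes, for P2 and the adult. Points are medians over cells and bars run from the lower to the upper quartile, and the medians climb from 49.7 to 106 at P2 and from 92.1 to 234 in the adult.

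Genes of the pathway were read in the order of the signal. All 11 interferon genes listed, Ifnb1 and Ifng among them, counted 0 UMIs in members and matched cells at both stages, which leaves room in members for up to 4.22 CPM at P2 and 4.17 in the adult (exact Poisson upper limit). Receptors and kinases had a summed ratio of 1.18 at P2 (1.07 to 1.30) and, among adult cells, 1.05 (0.963 to 1.14) and 0 of 8 tested genes at least 2-fold higher at either stage, against 2.29% and 1.99% of all tested genes. In the adult 1 of the 8, the kinase gene Jak2, was at least 2-fold lower against 4.99% of all, with an interval that spans 1 and 6 against 32 UMIs (ratio 0.480, 0.164 to 1.16). Ifnar1, a chain of the type I receptor, stood at 52.7 against 57.9 CPM at P2, members given first, and 37.3 against 44.6 in the adult. Ifngr1, a chain of the interferon gamma receptor, stood at 177 against 135 CPM at P2 (ratio 1.31, 1.08 to 1.59) and 359 against 338 in the adult (1.06, 0.928 to 1.21).

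The transcription factors stood higher, with a summed ratio of 2.02 at P2 (1.80 to 2.26) and, among adult cells, 2.12 (1.95 to 2.29) and 5 of 9 tested genes at least 2-fold higher at each stage, against 2.29% and 1.99% of all tested genes. Irf7, which sustains type I interferon responses, had ratios of 3.21 (2.16 to 4.78) and 3.08 (2.60 to 3.65). Irf1, which interferon gamma induces, stood at 166 against 47.6 CPM at P2 and 224 against 105 in the adult, ratios of 3.49 (2.73 to 4.47) and 2.13 (1.76 to 2.58). Irf3, which is present before any response, had ratios of 0.787 (0.480 to 1.25) and 0.971 (0.705 to 1.32).

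Sensors of viral nucleic acid had a summed ratio of 1.86 at P2 (1.56 to 2.22) and, among adult cells, 1.88 (1.65 to 2.15), with 3 of 8 and 4 of 10 tested genes at least 2-fold higher against the 2.29% and 1.99% of all tested genes. Ifih1, the RNA sensor MDA5, had ratios of 4.14 (2.17 to 8.06) and 2.97 (2.16 to 4.10), and the RNA-activated kinase Eif2ak2 2.30 (1.54 to 3.42) and 2.47 (1.81 to 3.38).

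Antiviral effectors, the longest list with 38 genes in the files, had a summed ratio of 1.57 at P2 (1.52 to 1.62) and, among adult cells, 1.64 (1.60 to 1.68), and the median gene stood at 2.14 and 2.17. At P2, 15 of 30 tested genes were at least 2-fold higher against 2.29% of all tested genes, and in the adult 23 of 35 against 1.99%, with 0 at least 2-fold lower at either stage. Ifit2, a neighbour of the rule genes Ifit1 and Ifit3, was found in 13.1% of P2 members and 2.92% of matched cells and in 32.7% and 6.02% in the adult, with ratios of 5.72 (2.73 to 12.6) and 7.69 (5.80 to 10.3). Oasl2, of the oligoadenylate synthetase family, had ratios of 5.31 (3.47 to 8.22) and 4.24 (3.23 to 5.60), and Ifi44 5.04 (3.12 to 8.28) and 4.04 (3.02 to 5.44). Rtp4 had ratios of 4.01 (3.19 to 5.05) and 3.41 (2.87 to 4.05), and Trim30a, of the tripartite motif family, 5.63 (3.68 to 8.74) and 2.34 (1.84 to 2.97).

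The most abundant effectors carried smaller ratios. Ifitm3, which blocks viral fusion, stood at 2696 against 1519 CPM at P2 and 4903 against 3080.3 in the adult, ratios of 1.78 (1.69 to 1.87) and 1.59 (1.53 to 1.65). Bst2, which tethers budding virus, had ratios of 1.74 (1.57 to 1.94) and 1.49 (1.37 to 1.61). Ifitm2 stood at 1196 against 1313 CPM and 1957 against 1958, level with the matched cells in the adult. Samd9l had ratios of 0.845 (0.560 to 1.25) and 1.99 (1.57 to 2.52) and Slfn2 1.18 (0.568 to 2.29) and 3.43 (2.64 to 4.47), and the difference between the stages was not tested.

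Isg15, a ubiquitin-like protein that is joined to other proteins during the response, was found in 64.2% of P2 members against 21.4% of matched cells and in 65.0% against 16.4% in the adult. Its level was 325 against 50.3 CPM at P2 (ratio 6.47, 5.24 to 8.02) and 796 against 106 in the adult (7.48, 6.46 to 8.70). Usp18, the protease that removes it and dampens receptor signalling, had ratios of 5.73 (3.80 to 8.77) and 5.33 (3.91 to 7.31). The 7 genes of the ISG15 system and its feedback had a summed ratio of 2.68 at P2 (2.42 to 2.97) and, among adult cells, 2.82 (2.62 to 3.03). Without Isg15, the most abundant of them, it was 1.94 (1.71 to 2.19) and 1.89 (1.73 to 2.06), and among cells with an immediate-early share below the stage median it was 3.72 (3.02 to 4.60) and 5.11 (4.40 to 5.94).

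The immunity GTPases, which act on membranes around intracellular microbes, had a summed ratio of 3.11 at P2 (2.71 to 3.58) and, among adult cells, 3.47 (3.22 to 3.75). All 8 tested at P2 and all 13 tested in the adult were at least 2-fold higher, against 2.29% and 1.99% of all tested genes. Gbp7 stood at 101 against 33.4 CPM at P2 and 340.5 against 104 in the adult, and Irgm1 had ratios of 3.29 (2.39 to 4.54) and 3.62 (2.69 to 4.88). Igtp had ratios of 2.52 (1.36 to 4.63) and 8.21 (5.92 to 11.6), and in the adult it was found in 32.7% of members and 4.20% of matched cells. Of the GTPase genes with a promoter window, 9 of 10 held GAAANNGAAA and 6 held the gamma-activated motif, while 11 of 31 antiviral effectors held the former. Of the tested genes with a window, 3.12% at P2 and 3.14% in the adult held GAAANNGAAA, and 6.88% and 6.92% the gamma-activated motif. Over the 4 lists, 54 genes were tested at both stages and 29 were at least 2-fold higher in both, against 50 of all 8365 genes tested at both.

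**Figure D3:**
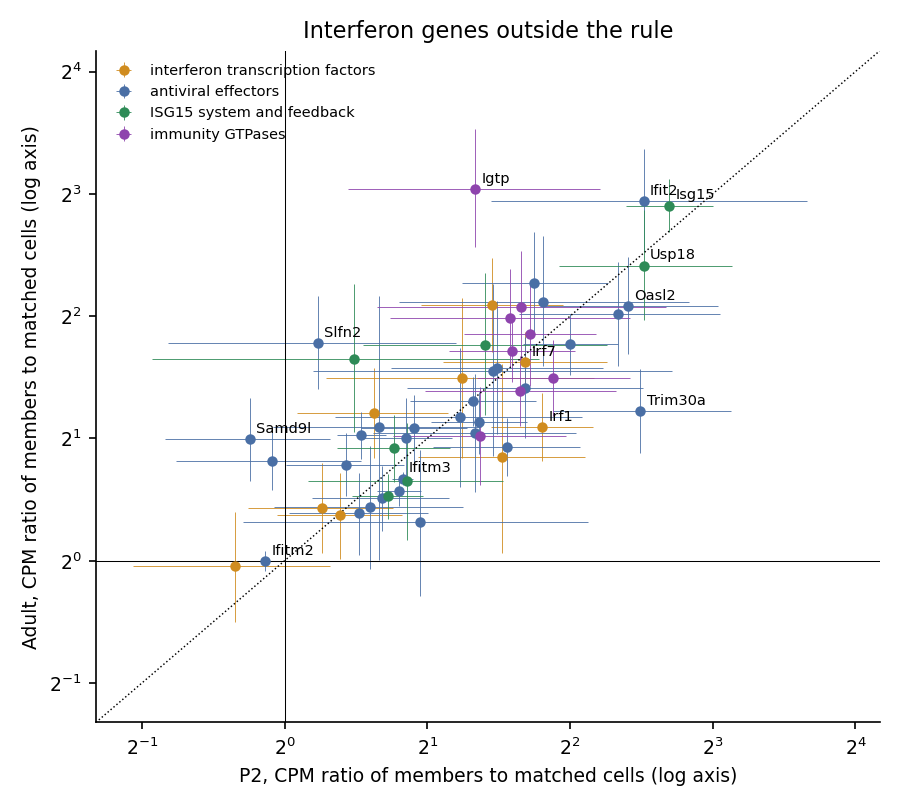
CPM ratio of members to matched cells at P2 (horizontal) and in the adult (vertical), both on log axes, for the 54 interferon genes outside the rule that were tested at both stages, with 95% counting intervals. Isg15 lies at 6.47 and 7.48, Igtp at 2.52 and 8.21, and Trim30a at 5.63 and 2.34.

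Antigen presentation by MHC class I followed with smaller ratios, 1.39 at P2 (1.34 to 1.45) and, among adult cells, 1.22 (1.20 to 1.25). Tap1, of the peptide transporter, had ratios of 2.98 (1.99 to 4.47) and 3.27 (2.46 to 4.35) and the immunoproteasome subunit Psmb8 2.27 (1.77 to 2.90) and 1.98 (1.76 to 2.22). The heavy chain gene H2-D1 had 1.31 (1.21 to 1.42) and 1.13 (1.08 to 1.18), and the light chain gene B2m 1.37 (1.29 to 1.46) and 1.19 (1.16 to 1.23). MHC class II genes were nearly absent at P2, with 11 UMIs in members and 4 in matched cells. In the adult their ratio was 1.42 (1.28 to 1.58), but 474 of the 575 UMIs came from 1 member, and without it the ratio was 0.253.

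Chemokines and adhesion genes had a summed ratio of 1.41 at P2 (1.36 to 1.48) and, among adult cells, 1.18 (1.15 to 1.21), with 6 of 13 and 3 of 14 tested genes at least 2-fold higher (2.29% and 1.99% of all genes), but 3 and 2 (1.45% and 1.19%) also without the member with most of a gene's UMIs. Icam1, the ligand of leukocyte integrins, stood at 289 against 62.9 CPM at P2 and 183 against 71.5 in the adult, ratios of 4.59 (3.75 to 5.62) and 2.56 (2.05 to 3.20). Cxcl9, a chemokine induced by interferon gamma, had 17 against 9 UMIs at P2 and a ratio of 1.75 (1.35 to 2.27) in the adult. Cd274, the ligand PD-L1, had 66 against 46 UMIs in the adult, a ratio of 3.68 (2.48 to 5.48). Several values rested on single cells. At P2 all 92 UMIs of Ccl5 came from 1 member, all 25 of Selp from another, and 76 of the 117 UMIs of Ccl2 from a further cell, without which the Ccl2 ratio of 4.31 was 1.52. Cxcl1 had 132 against 90 UMIs at P2 (ratio 4.38, 3.32 to 5.79), or 3.45 without the member with most of them. In the adult the Cxcl1 ratio of 1.38 was 0.915 without the member with most of its UMIs.

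Genes of cell stimulation stood higher beside the interferon genes. Immediate-early genes, which respond within minutes to many stimuli including tissue digestion, had a summed ratio of 1.66 at P2 (1.62 to 1.71) and, among adult cells, 1.44 (1.41 to 1.47). Fos was the most abundant, at 2251 and 2898 CPM in members, and Atf3 had ratios of 2.84 (2.43 to 3.32) and 1.85 (1.64 to 2.08). Of the P2 members 20.4% lay in the top 10% of cells by immediate-early share against 6.08% of matched cells, and in the adult 20.3% against 11.0%. NF-kB targets had a summed ratio of 1.60 at P2 (1.46 to 1.76) and, among adult cells, 1.35 (1.25 to 1.45). Nfkbia, the inhibitor of the factor, held most of these UMIs, 619 against 1033 at P2 and 845 against 1560 in the adult. Without it the ratios were 0.978 (0.773 to 1.23) and 1.20 (1.00 to 1.43), and 0 genes of the list were at least 2-fold higher at either stage (2.29% and 1.99% of all tested genes). At least 2-fold lower (4.19% and 4.99% of all) were 1 of 7 at P2, Tnfaip2 with 5 against 62 UMIs, and 1 of 8 in the adult, Traf1 with 1 against 20. Heat shock genes had 1.20 (1.17 to 1.25) and 1.28 (1.25 to 1.31). Among cells whose immediate-early share lay below the stage median, 42 P2 and 129 adult members remained. There the interferon genes outside the rule had ratios of 1.98 (1.88 to 2.08) and 2.02 (1.95 to 2.10), at least as large as over all members. NF-kB targets had 1.20 (0.943 to 1.51) and 1.09 (0.927 to 1.29). Immediate-early genes had 1.28 (1.18 to 1.38) and 0.947 (0.864 to 1.04), but their own counts chose these cells on both sides, which partly sets that ratio.

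The 8 pan-endothelial markers had a summed ratio of 1.05 at P2 (1.01 to 1.08) and, among adult cells, 0.985 (0.955 to 1.02), and capillary markers 1.26 (1.23 to 1.30) and 1.14 (1.12 to 1.17). Against all P2 cells with a sum of 0 the capillary ratio was 1.12 (1.09 to 1.15). Without cells bearing markers of other types it was 1.14 (1.10 to 1.17) at P2. Rgcc, a capillary marker in the heart, had ratios of 1.51 (1.37 to 1.66) and 1.31 (1.23 to 1.39), and the carbonic anhydrase Car4 1.44 (1.22 to 1.69) and 1.40 (1.22 to 1.61). Angiogenic capillary markers had 1.08 (1.02 to 1.14) and 0.998 (0.934 to 1.07), and platelet markers, mostly Gng11, 1.01 (0.950 to 1.07) and 1.01 (0.957 to 1.07).

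Artery markers stood at 0.541 at P2 (0.507 to 0.578) and, among adult cells, 0.804 (0.769 to 0.841) times the matched level, with 5 and 3 of 13 tested genes at least 2-fold lower against 4.19% and 4.99% of all tested genes. The gap junction gene Gja4 had ratios of 0.438 (0.323 to 0.584) and 0.396 (0.264 to 0.577), and the elastic fibre genes Eln and Fbln5 0.239 and 0.216 at P2, with 0.432 and 0.312 among adult cells. Sox17, a transcription factor of arterial endothelium, had ratios of 1.14 (0.969 to 1.33) and 1.03 (0.896 to 1.19), and 3 of the 13 genes stood above a ratio of 1 at each stage. Among cells with an immediate-early share below the median, the summed artery ratio at P2 was 0.893 (0.785 to 1.01), an interval that spans 1, and 0.819 (0.756 to 0.887) in the adult. Vein markers had 0.798 (0.716 to 0.888) and 1.12 (1.01 to 1.24), or 1.33 at P2 without cells bearing markers of other types, and the remaining endocardial markers 0.936 and 0.611. The endocardial value was 1.47 (1.15 to 1.86) at P2 with low immediate-early shares and 0.384 in the adult without the member with most of the UMIs. Cell cycle genes stood at 0.756 (0.710 to 0.805) at P2, or 1.04 against all cells with a sum of 0, and at 1.23 (1.05 to 1.44) in the adult, where members had 240 UMIs of them and the ratio without the member with most was 1.05.

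Markers of other cell types moved with the comparison and are given for whole lists. Lymphatic markers had 79 UMIs in P2 members and 4427 in matched cells, 3797 of the latter from Ccl21a. In the adult the counts were 144 and 157, and 92 of the members' UMIs came from 1 cell. Mural and fibroblast markers, of which Dcn was abundant, had ratios of 0.527 (0.446 to 0.619) and 0.452 (0.418 to 0.488), though 1.01 at P2 with 1 matched cell per member. Erythroid markers counted 4 UMIs in members and 18 in matched cells at P2 and 20 and 2399 in the adult. Leukocyte markers counted 3 and 8 UMIs at P2, with 13 of 14 genes at 0 in members, Ptprc among them. Adult members held 497 leukocyte UMIs, mostly from 2 cells with 228 and 247 of them, which had 3 and 2 pan-endothelial UMIs. Cardiomyocyte markers had ratios of 1.42 (1.11 to 1.81) and 1.69 (1.38 to 2.07). With cells of 3 or more UMIs of these 5 lists left out on both sides, 114 P2 and 306 adult members remained, and the interferon genes outside the rule had ratios of 1.69 (1.64 to 1.74) and 1.84 (1.80 to 1.88). Artery markers then stood at 0.684 (0.635 to 0.735) and 0.792 (0.754 to 0.830).

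**Figure D4:**
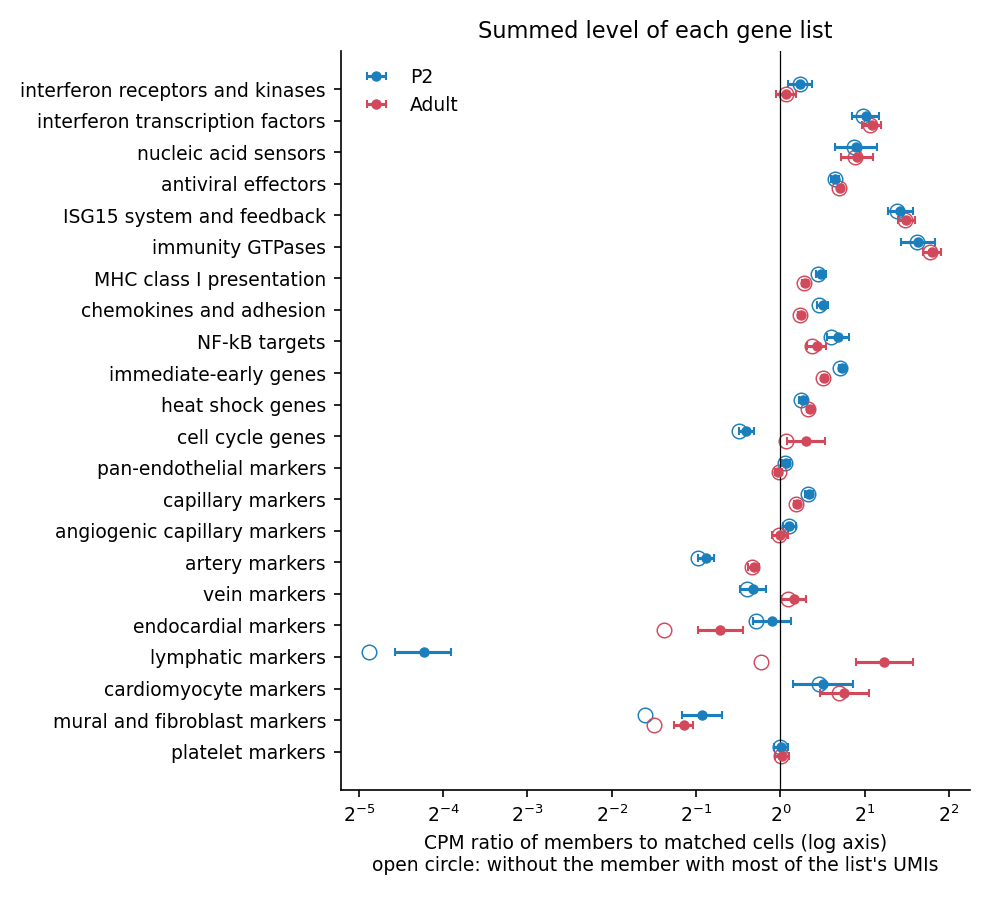
CPM ratio of members to matched cells (log axis) for gene lists with enough UMIs on both sides, at P2 and in the adult, with 95% counting intervals. Open circles leave out the member with most of a list's UMIs; the interferon lists lie above a ratio of 1 and the artery list below it, and the adult lymphatic value drops from 2.35 to 0.851.

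Of the 8365 genes tested at both stages, 50 were at least 2-fold higher in both, which is 27.6% of the 181 at P2 and 40.7% of the 123 in the adult, and 54 were at least 2-fold lower in both, 19.9% of 271 and 17.7% of 305. Of the 50, 35 belong to the lists above and 15 do not. Some rest largely on 1 member. Selp, among the 35, drew all 25 P2 UMIs and 10 of 14 adult UMIs from 1 member each. Cxcl2, among the 15, drew 101 of 203 adult UMIs from 1 member. Mndal, of the interferon-inducible Ifi200 family, had ratios of 2.71 (2.04 to 3.59) and 2.23 (1.95 to 2.55), and Phf11d 3.20 (2.28 to 4.49) and 2.80 (2.32 to 3.39). Pde12, a phosphodiesterase that degrades the messenger made by oligoadenylate synthetases, had 2.70 (1.95 to 3.73) and 2.60 (1.83 to 3.70). Hexim1, an inhibitor of transcript elongation, had 2.82 (1.71 to 4.63) and 2.15 (1.43 to 3.23), and the kinase gene Pim1 2.06 (1.56 to 2.70) and 2.40 (1.73 to 3.33). GAAANNGAAA stood before 13 of the 41 genes with a window that were higher at both stages (31.7%). It stood before 10.6% of the genes higher at P2 and 20.7% of those higher in the adult, against 3.12% and 3.14% of the tested genes. The gamma-activated motif stood before 8 of the 41 genes higher at both stages (19.5%). With a window, 21 of 161 genes higher at P2 and 19 of 140 higher in the adult held it, against 6.88% and 6.92%. Outside the lists, 13 genes higher at both stages had a window. Of these, 2 held GAAANNGAAA and 1 held the gamma-activated motif.

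By ratio alone, Trim34a, of the tripartite motif family, was the highest gene outside the lists at P2, with 17 against 9 UMIs (ratio 5.64, 2.38 to 14.4), though its ratio to all cells with a sum of 0 was 1.93. Bmp2, a growth factor, stood at 49.2 against 13.8 CPM (3.56, 2.24 to 5.71), or 2.43 without the member with most of its UMIs. In the adult Ifit3b had 234 against 25 UMIs (24.0, 15.8 to 37.8) and Gm4951 55 against 11 (12.8, 6.63 to 27.1). Ccl4, Ccl8, Lcn2 and Il1b, also among the highest in the adult, drew 20 of 20, 41 of 41, 36 of 41 and 68 of 70 UMIs from 1 cell each. The Ccl4 and Il1b UMIs came from the same member, which held 228 leukocyte, 474 MHC class II and 3 pan-endothelial UMIs. The Ccl8 UMIs came from a member with 247 leukocyte and 2 pan-endothelial UMIs. The lowest genes included Ptx3 (0 against 92 UMIs) and Ahsg (1 against 118) at P2, and Ogn (1 against 65), Dpep1 (1 against 60) and Retnla (2 against 85) in the adult. The 85 Retnla UMIs came from 3 matched cells, and 2 members held it. Wfdc1 and Lsamp were among the 10 lowest at both stages.

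Members were also split by the rule genes that made up more than 50% of the sum. Genes outside the rule were read as a description. The split uses the counts that chose the cells, so cells led by Iigp1 are low in Ifit1, Ifit3 and Rsad2 beside it by construction. Genes that vary with the leading genes can differ through the split itself. Ifit1, Ifit3 and Rsad2 together led in 59 P2 and 191 adult cells, and Iigp1 led in 53 and 118. Cells led by Ifit1, Ifit3 and Rsad2 had higher Isg15, 492 against 220.5 CPM at P2 (ratio 2.23, 1.68 to 2.98) and 1106 against 398 in the adult (2.78, 2.27 to 3.44). In the adult Ifit2 stood at 335 against 88.0 CPM (3.80, 2.49 to 6.05), Irf7 at 433 against 211 (2.05, 1.53 to 2.78) and Usp18 at 194 against 102 (1.90, 1.24 to 2.99). Cells led by Iigp1 had higher Irf1 and Icam1, with ratios in the same sense of 0.332 (0.198 to 0.538) and 0.392 (0.285 to 0.538) for Irf1 and 0.347 (0.248 to 0.480) and 0.454 (0.303 to 0.677) for Icam1. Immediate-early genes had ratios of 0.765 (0.731 to 0.802) and 0.670 (0.645 to 0.696). The intervals for Gbp2 and Igtp spanned 1 at both stages.

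**Figure D5:**
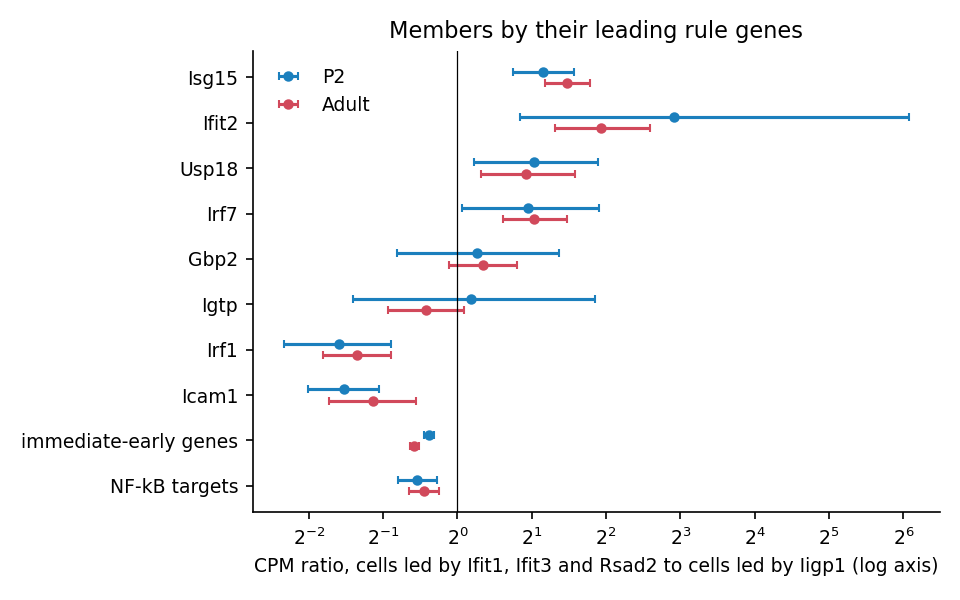
CPM ratio (log axis) of members led by Ifit1, Ifit3 and Rsad2 to members led by Iigp1, for genes and lists outside the rule, at P2 (59 and 53 cells) and in the adult (191 and 118 cells), with 95% counting intervals. Isg15, Ifit2, Usp18 and Irf7 lie above a ratio of 1 and Irf1, Icam1, immediate-early genes and NF-kB targets below it at both stages.

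A further split was by whether Cxcl10 was detected. In the 32 P2 and 19 adult members with Cxcl10, Cxcl1 stood at 331 and 853 CPM, against 69.8 and 71.9 in members without it, and 39 of the 54 adult UMIs came from 1 cell. Icam1 stood at 460.1 and 585 CPM against 211 and 152, and NF-kB targets at 1207 and 2608 against 649.8 and 1059.9. Antiviral effectors stood at 6291 and 13261 CPM with Cxcl10 and 6847 and 12861 without it. The ISG15 system, members with Cxcl10 first, had 688 against 879 CPM at P2 and 2449.9 against 1753 in the adult. Immunity GTPases had 375 against 520.2 CPM at P2 and 2323 against 1742 in the adult. Both lists were lower with Cxcl10 at P2 and higher with it in the adult, and the difference between the stages was not tested.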

How the data were processed

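Cells were read from 10x Genomics 3′ libraries, 1 per stage, of sorted CD31+/CD45- mouse heart cells. The deposited matrices hold UMI counts per gene and barcode, which the authors made with Cell Ranger 2.2 on mm10, without normalization. The E15, P2 and adult matrices hold called cells, and E12 barcodes were kept from 452 UMIs. Groups were taken from the labels.

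From these counts, members, matched cells (3 per member, nearest in total UMIs, stage by stage) and CPM ratios of summed UMIs were computed with Python 3.11.15, NumPy 2.4.6, SciPy 1.17.1, pandas 2.3.3 and scanpy 1.11.5, and plotted with matplotlib 3.10.9. Ratios have exact conditional binomial 95% intervals and CPM exact Poisson ones, which cover counting error. No p-value was computed, since each stage had 1 library. Simulated summed counts were drawn from the counting model that the intervals assume, without variation between cells. Coverage near 95% was therefore built in, and the shares below do not cover genes carried by single cells. Tests on these simulated data for the 9125 P2 and 9124 adult genes gave an interval coverage of 96.2% and 95.9%. They placed past the 2-fold limit 99% of genes raised 4-fold at either stage, 5% and 4% of genes raised 1.5-fold, and 0.448% and 0.863% of unchanged genes.

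The members, the gene lists and the comparisons were chosen with earlier results of these data known. Named genes were the rule genes, list members, and outside the lists the 15 highest and 10 lowest ratios per stage among genes with at least 20 UMIs. Genes outside the lists that were 2-fold higher at both stages, and single-cell counts, were named after their values were seen. Doublets were not removed. Scrublet scores above 0.15 were held by 5 P2 and 11 adult members. The P2 and adult libraries shared 39 barcodes, and 2 adult members' barcodes also occurred at P2. Alternatives were other limits on the rule sum, thinning to 1000 UMIs, other reference cells and gene minimums, the study's limits per cell and doublet scores. Using 1 reference cell per member, leaving out cells with other-type markers keeping cells with low immediate-early shares, and leaving out a list's most abundant gene or a gene's top member were chosen after seeing the data.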

Additional observations from a re-analysis of the deposited data

Results flagged for a closer look

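Cell cycle genes lay on opposite sides of the matched cells at the 2 stages, with a CPM ratio of 0.756 at P2 and 1.23 in the adult, or 1.05 in the adult without the member with most of these UMIs. Vein markers had 0.798 at P2 and 1.12 in the adult, and 1.33 at P2 once cells with markers of other types were left out. Lymphatic markers had 0.0533 at P2 and 2.35 in the adult, or 0.851 there without 1 member. The P2 value was 0.185 (0.130 to 0.255) without Ccl21a. It was 0.481 (0.245 to 0.869) without cells bearing markers of other types, a choice that used this list. With 1 library per stage, none of these 3 differences between the stages was tested.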

How the results depend on the processing

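The interferon genes outside the rule stood above the matched cells under every alternative run. Against all cells with a sum of 0 in place of matched ones, the P2 ratio was 1.62 and 327 genes were at least 2-fold higher. A rule sum of at least 3 gave 240 P2 and 532 adult members with ratios of 1.62 and 1.68, and a sum of at least 8 gave 32 and 98 with 2.04 and 2.36. With cells thinned to 1000 UMIs and chosen anew by at least 2 rule-gene UMIs, shallower cells left out, 85 of 4210 P2 cells and 457 of 3046 adult cells met the rule, with ratios of 1.63 and 1.64. With low immediate-early shares 42 and 129 members gave 1.98 and 2.02, and the study's limits per cell gave 1.90 in the adult. Without the member with most of a gene's UMIs, 132 P2 and 109 adult genes were also at least 2-fold higher. A minimum of 50 UMIs left 89 P2 and 88 adult genes at least 2-fold higher, and 1 UMI on each side 890 and 900, in which few-UMI genes enter.

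Some lists crossed a ratio of 1, and the cause was not tested. Against all cells with a sum of 0, P2 cell cycle genes stood at 1.04, P2 pan-endothelial markers at 0.965 and adult lymphatic markers at 0.877. Without cells bearing markers of other types, P2 angiogenic capillary markers stood at 0.974, vein markers at 1.33 and mural and fibroblast markers at 1.46, and adult MHC class II genes at 0.408 and lymphatic markers at 0.548. The lymphatic, mural and fibroblast, and erythroid lists helped to choose the cells left out there, so that choice partly sets their ratios. With low immediate-early shares, P2 cardiomyocyte markers stood at 0.760 and mural and fibroblast markers at 1.10. Adult MHC class II, immediate-early, heat shock and cell cycle genes stood there at 0.296, 0.947, 0.977 and 0.780. The immediate-early list chose those cells, so that choice partly sets its ratio. With 1 matched cell per member, P2 mural and fibroblast markers stood at 1.01 and adult leukocyte markers at 0.801. Without the most abundant gene, P2 NF-kB targets stood at 0.978 and adult lymphatic markers at 0.674. Adult mural and fibroblast markers ran from 0.102 to 0.719 over the alternatives, and adult erythroid markers stood at 0.722 without cells bearing markers of other types.

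Shallow adult cells with few rule-gene UMIs cannot be told from cells without a response, so depth limits the share found. No paired analysis was possible because each stage had a single library.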

Other observations

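Single members carried genes that few or no other members held. A P2 cell with a rule sum of 25 held all 25 UMIs of P-selectin (Selp) and all 7 of the venule gene Ackr1 found in P2 members, beside 23 pan-endothelial UMIs. An adult cell with a sum of 16 held 10 of 14 Selp UMIs, all 3 Ackr1 UMIs and 36 of 41 of lipocalin 2 (Lcn2), beside 27 pan-endothelial UMIs and 174 of mural and fibroblast markers. A P2 cell with a sum of 11 held all 92 UMIs of Ccl5, a T cell chemokine, with 0 leukocyte UMIs and 36 pan-endothelial UMIs. These cells were picked out after their values were seen.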
